A study of Mus musculus with 4 samples.

Results

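Tox, Tox2, Nr4a1, Nr4a2 and Nr4a3 are 5 of the 31253 genes counted in single-cell RNA libraries of CD8+ T cells from mouse tumours, and they were taken by their symbols. Their levels were read in barcodes with at least 1 UMI (unique molecular identifier, a counted transcript) of a CD3 gene and 1 of a CD8 gene. Barcodes with fewer than 1000 UMIs, with fewer than 500 genes or with over 10% of UMIs from mitochondrial genes were left out. Each of the 4 groups was 1 library in which the cells of 3 mice had been pooled, so no spread between mice could be measured and no test was made. The tumours were of MB49, a bladder carcinoma line of the mouse, and cells were sorted for CD45 and CD8. WT and KO were from subcutaneous tumours in C57BL/6Slac mice aged 10 to 12 weeks, and KO mice are labelled BFAR-CD8-KO, a deletion of Bfar in CD8+ T cells whose Cre driver the labels do not name. Young and Aged were from tumours in Rag1-/- hosts aged 8 to 10 weeks, which make no mature T or B cells of their own. The hosts' strain is written B6.129S7-Rag1tm1Mom/J for Aged and B6.129S7-Rag1tm0Mom/J for Young. They received CD8+ T cells by vein, from donors aged 8 weeks (Young) or 18 months (Aged), on the day of tumour inoculation. The pairs were made with different kits, so levels were compared only within a pair.

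TOX is a nuclear protein with an HMG box that chronic antigen signalling induces through calcineurin and NFAT, and exhausted CD8+ T cells depend on it to persist. TOX2 is its close relative and is found in the same state. NR4A1 (Nur77), NR4A2 (Nurr1) and NR4A3 (Nor1) are orphan nuclear receptors. Their genes are immediate early genes, transcribed soon after the T cell receptor is engaged, and NR4A proteins also take part in exhaustion. TCF1, encoded by Tcf7, marks progenitor-like exhausted cells, PD-1 (Pdcd1) is found on activated and exhausted cells, and TIM-3 (Havcr2) marks cells further along. These libraries hold a single time point, so how long a transcript lasts was not measured. Tox and the Nr4a genes were instead set apart by the other transcripts that went with each.

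The stretches before the transcription starts of the Nr4a genes are shown because these 3 genes were all higher in KO and all lower in Aged and share a motif there. Sequences are from RefSeq (GRCm38.p6, the mm10 build), printed 5′ to 3′ on each gene's strand, and capitals mark the core of the cAMP response element, TGACG on either strand. CREB and related factors bind this element. The windows run over the 250 bases before the RefSeq start. That of Nr4a1 is chr15:101266596-101266845 (plus strand), inside the gene's annotated span but outside its exons. That of Nr4a2 is chr2:57124004-57124253 (minus strand), just outside the gene. For Nr4a3 (plus strand) chr4:48045055-48045152 is printed, since GENCODE M21 places the next 152 bases of its window in the first exon.
Nr4a1: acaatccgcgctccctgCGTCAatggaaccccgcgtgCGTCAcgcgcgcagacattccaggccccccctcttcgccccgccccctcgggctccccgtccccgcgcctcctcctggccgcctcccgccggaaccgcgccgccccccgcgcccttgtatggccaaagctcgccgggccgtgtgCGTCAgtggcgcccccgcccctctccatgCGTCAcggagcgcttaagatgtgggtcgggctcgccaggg
Nr4a2: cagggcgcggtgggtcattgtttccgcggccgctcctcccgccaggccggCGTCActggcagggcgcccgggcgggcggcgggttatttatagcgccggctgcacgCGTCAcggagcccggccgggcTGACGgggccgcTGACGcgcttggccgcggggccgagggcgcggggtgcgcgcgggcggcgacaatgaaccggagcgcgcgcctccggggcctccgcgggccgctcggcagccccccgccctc
Nr4a3: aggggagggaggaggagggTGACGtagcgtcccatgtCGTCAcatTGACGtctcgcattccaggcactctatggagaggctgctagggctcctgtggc

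Each of these windows held 4 such cores, the last of those of Nr4a3 lying in its first exon and not printed. Of 32817 promoter windows of the same length, 17.7% held at least 1 core and 0.137% held at least 4. G and C made up 74.4% of the bases in the window of Nr4a1, 80% in that of Nr4a2 and 63.6% in that of Nr4a3. The windows compared were not matched for this content. The NGFI-B response element that NR4A proteins bind, AAAGGTCA, was in none of the Nr4a windows and in 1.34% of all windows. The AP-1 element, TGANTCA, was also in none, against 6.75% of all. Of the Nr4a windows only that of Nr4a2 held the NFAT core GGAAA (55.6% of all windows) and a TATA box, TATAAA (12.4%), each searched on both strands. Tox2 has 5 starts in the table. Of its 5 windows 1 held 1 cAMP response element core, and the windows of 2 adjoining starts held 1 NFAT core and 1 TATA box each. Tox had no entry in the table. These are matches of letters, and binding was not measured.

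In mm10, Tox lies at chr4:6686353-6991557 (minus strand), Tox2 at chr2:163203125-163324170 (plus), Nr4a1 at chr15:101254269-101274795 (plus), Nr4a2 at chr2:57106830-57124003 (minus) and Nr4a3 at chr4:48045153-48086447 (plus). All are protein-coding, with 9 exons in the main transcript of Tox and of Tox2 and 8 in that of each Nr4a gene. Only Tox overlaps another annotated gene, Gm11802, which is on the opposite strand.

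The class held 8966 WT, 8153 KO, 9803 Young and 8252 Aged barcodes, 93.0% to 96.9% of those past the filters. Its median depth was 6341, 6870, 4510 and 5768 UMIs. Bfar, the deleted gene, stood at 32.1 CPM (UMIs per 1000000 of the class) in WT, 22.4 in KO, 22.1 in Young and 26.0 in Aged, so KO still held transcripts, and the labels do not say which exons were deleted. All 6 CD3, CD8 and Trac transcripts that define T cells were above 10 CPM in every library. All of them but Trac were used to choose the class, so their presence was largely fixed by that choice. Marker sums of other cell types differed within pairs. Those of tumour or epithelial cells were 351 CPM in WT, 136 in KO, 195 in Young and 49.0 in Aged. Those of mast cells or basophils were 328, 114, 4.33 and 3.53, and those of fibroblasts 281, 45.7, 48.9 and 17.6. Those of dendritic cells were 295, 304, 919 and 295. Young and Aged shared 145 cell barcode sequences, WT and KO 20, and all other pairs of libraries 0 or 1. Foxp3, which defines regulatory T cells, had a UMI in 0.254% to 1.51% of the class.

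Tox stood at nearly the same level in KO and WT, and the 3 Nr4a genes were higher in KO. In the transfer pair the sets went opposite ways, with Tox and Tox2 higher and all 3 Nr4a genes lower in Aged. Tox stood at 65.0 CPM in WT (95% Poisson interval 63.2 to 66.8), 69.3 in KO (67.4 to 71.3), 71.4 in Young (69.3 to 73.5) and 137 in Aged (134 to 139). Its KO to WT ratio was 1.07 (exact conditional interval 1.02 to 1.11) and its Aged to Young ratio 1.91 (1.85 to 1.99). These and all later intervals cover counting error only. The KO to WT difference of Tox has no settled direction. Its log2 ratio, computed with a pseudocount of 1 CPM, was 0.09 in the whole class. It was -0.021 without barcodes holding markers of other cell types and -0.069 among barcodes of 4000 to 8000 UMIs. With no CD3 and CD8 gate it was 0.19, the highest of 15 alternatives.

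Tox2 was counted at 7.27 CPM in WT (6.68 to 7.90), 3.70 in KO (3.27 to 4.19), 1.68 in Young (1.37 to 2.04) and 5.30 in Aged (4.75 to 5.89). The ratio was 0.510 for KO over WT (0.438 to 0.592) and 3.16 for Aged over Young (2.52 to 3.98). Tox2 was thus lower in KO while Tox was not, and both were higher in Aged. Few cells carried it, since 554 UMIs in WT and 102 in Young were all there were.

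Nr4a1 stood at 109 CPM in WT (107 to 111), 145 in KO (142 to 147), 276 in Young (272 to 280.3) and 148 in Aged (145 to 151). The KO to WT ratio was 1.33 (1.29 to 1.37) and the Aged to Young ratio 0.537 (0.524 to 0.551). Nr4a1 therefore had the largest Aged to Young difference of the 3 receptors. Nr4a2 stood at 199.8 CPM in WT (197 to 203), 253 in KO (249 to 257), 290.3 in Young (286 to 295) and 235 in Aged (232 to 239). Its ratios were 1.27 (1.24 to 1.29) and 0.811 (0.794 to 0.829), the ratios nearest to 1 of the 3 in both pairs. Nr4a3 stood at 149 CPM in WT (146 to 151), 200.2 in KO (197 to 204), 262 in Young (258 to 266) and 178 in Aged (175 to 181). Its ratios were 1.35 (1.31 to 1.38) and 0.679 (0.663 to 0.695).

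**Figure D1:**
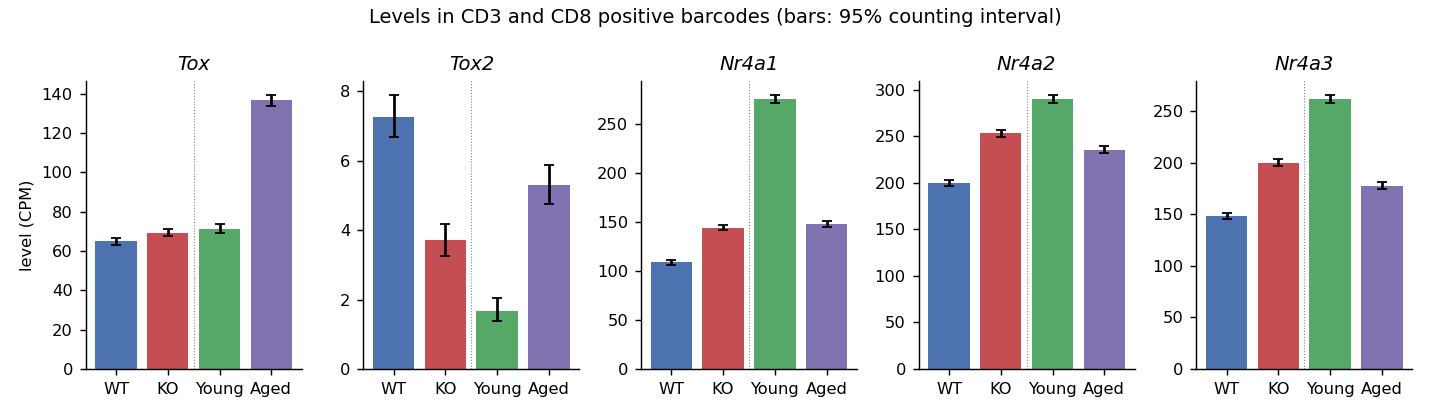
Levels of the 5 genes in CPM (vertical axes, from 0, 1 scale per gene) in CD3 and CD8 positive barcodes of the 4 libraries, with 95% counting intervals as bars; the dotted line parts the pairs. The Nr4a genes are higher in KO than WT and lower in Aged than Young. Tox is nearly level in KO and WT and higher in Aged (137 CPM) than in Young (71.4 CPM).

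For a count against all genes, a gene had to reach 20 UMIs in the pair as a whole and 10 CPM in either library to be called measured. Tox2 was below 10 CPM throughout, which left 4 of 5 genes measured. In KO over WT, 0 of the 4 was at least 1.5 times higher or lower, beside 0.499% of 7415 genes higher and 2.87% lower. In Aged over Young, Tox was past 1.5-fold higher, beside 2.29% of 7938 genes, and Nr4a1 past 1.5-fold lower, beside 3.57%. Over all 5 genes the median log2 ratio was 0.34 in KO over WT, where that of all measured genes was -0.05, and -0.30 in Aged over Young, where it was 0.08. The second median joins genes that went opposite ways.

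Sequencing depth sets how many cells show a UMI, so shares were also taken after thinning every barcode to 2000 UMIs, which left out 80 WT, 45 KO, 611 Young and 201 Aged barcodes. Tox then had a UMI in 11.2% of WT, 11.6% of KO, 10.1% of Young and 19.9% of Aged barcodes, against 29.7%, 31.0%, 21.5% and 39.7% unthinned. Thinned shares of Nr4a1 were 16.7%, 20.1%, 36.0% and 23.2%, against 37.5%, 44.7%, 57.7% and 45.3% unthinned. Thinned shares kept the order of the levels within each pair for both genes. For Nr4a2 the thinned shares were 27.3%, 32.4%, 36.6% and 33.5% (unthinned 51.6%, 58.8%, 57.7% and 61.2%), so the Aged share was the higher of its pair only before thinning. Those of Nr4a3 were 23.8%, 29.1%, 35.7% and 28.7% (unthinned 49.5%, 60.1%, 59.5% and 56.1%), and those of Tox2 1.31%, 0.678%, 0.348% and 1.01% (unthinned 4.37%, 2.17%, 0.857% and 3.16%). In thinned barcodes the Fano factor (variance over mean, 1 for pure counting) was 1.27 to 1.61 for Tox and 1.64 to 2.34 for Nr4a1. It was 1.68 to 1.81 for Nr4a2 and 1.57 to 1.63 for Nr4a3 over the 4 libraries. Mean UMIs per thinned barcode were 0.126 to 0.284 for Tox and 0.231 to 0.617 for Nr4a1. The factors were not compared at equal means, so they do not rank the genes by spread.

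As a background for free RNA, barcodes with no CD3 UMI and at least 3 markers of another cell type were read. Tox had 0 UMIs in the tumour or epithelial, dendritic, mast cell and fibroblast types of every library that held such barcodes, among them 57 WT barcodes with tumour or epithelial markers (median 42378 UMIs) and 57 Young barcodes with dendritic markers (median 16364 UMIs). By the approximation of 3 over the number of barcodes, 0 of 57 allows a share with a UMI of up to about 5.26%. This limit is not a Clopper-Pearson one. The NK cell type did hold Tox, at 35.9 CPM in 13 WT barcodes, 32.7 in 7 KO, 27.9 in 47 Young and 12.4 in 9 Aged, with a UMI in 22.2% to 34.0% of them. Because barcodes with a CD3 UMI were left out, this background selects against free RNA of T cells. Nr4a1 was present in such barcodes, at 411 CPM in the Young and 275 CPM in the Aged dendritic type, and at 356 CPM in the 42 WT mast cell or basophil barcodes. Removal of barcodes with at least 2 UMIs of dendritic markers other than Ccr7 (7.75% of Young, 6.97% of Aged) left the Aged to Young log2 ratio of Nr4a1 at -0.87, from -0.89. Removal of those with markers of tumour, myeloid, mast, B, stromal or endothelial cells (12.3% of WT, 9.57% of KO) left the KO to WT log2 ratio of Nr4a1 at 0.44, from 0.41, and took that of Nr4a2 from 0.34 to 0.24.

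The class was then divided into 8 gates by whether a barcode had a UMI of Tcf7, Pdcd1 and Havcr2. The gate genes were themselves different in the transfer pair, with Aged to Young ratios of 2.04 for Pdcd1, 1.93 for Havcr2 and 0.637 for Tcf7, and nearly alike in KO and WT (1.14, 1.06 and 1.07). Barcodes with Pdcd1 and Havcr2 but no Tcf7 made up 25.1% of Aged and 8.12% of Young, and 16.1% of KO and 16.5% of WT. In every library Tox was lowest where Pdcd1 was absent and Tcf7 present. In the Tcf7+ Pdcd1- Havcr2- gate it was 25.4 CPM in WT, 31.4 in KO, 27.0 in Young and 33.0 in Aged. In the Tcf7- Pdcd1+ Havcr2+ gate it was 99.9, 104, 143 and 177 CPM.

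The presence of Pdcd1 went with Tox and Nr4a2, with Tox2 at low counts and, to a lesser degree, with Nr4a3. With Tcf7 and Havcr2 both absent, the ratio of Pdcd1+ to Pdcd1- barcodes for Tox was 2.34 in WT (2.08 to 2.63), 2.31 in KO (2.04 to 2.63), 3.43 in Young (3.07 to 3.85) and 2.31 in Aged (2.11 to 2.55). For Nr4a2 it was 1.61, 1.68, 1.76 and 1.32, all intervals above 1. For Tox2 it was 1.78 to 6.39, also with all intervals above 1, on 7 (Young) to 32 (WT) UMIs in Pdcd1- barcodes. For Nr4a3 it ranged from 0.977 to 1.17 and for Nr4a1 from 0.636 (Aged) to 1.06 (KO). Nr4a1 was the 1 gene of the 5 with an interval below 1 here, in 3 of 4 libraries. The same contrast among Tcf7+ barcodes gave 1.91 to 3.47 for Tox, 1.56 to 1.77 for Nr4a2 and 0.924 to 1.12 for Nr4a1. For Tox2 it gave 1.61 to 6.23, with 2 of 4 intervals above 1. Gates called from thinned barcodes gave 1.43 to 2.85 for Tox and 1.30 to 1.80 for Nr4a2 among Tcf7+ barcodes. Among Tcf7- barcodes they gave smaller ratios for Tox than gates from all UMIs, at 1.81 in WT, 1.54 in KO, 2.73 in Young and 1.83 in Aged. For Nr4a1 they turned the direction among Tcf7+ barcodes in Young (0.955 and 1.11) and Aged (0.924 and 1.09), and among Tcf7- barcodes in KO (1.06 and 0.915).

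The presence of Tcf7 parted Tox from Nr4a1 and Nr4a3. Among Pdcd1+ Havcr2- barcodes, the Tcf7+ level of Tox was 0.702 times the Tcf7- level in WT (0.639 to 0.770), 0.689 in KO (0.629 to 0.754), 0.617 in Young (0.557 to 0.682) and 0.602 in Aged (0.552 to 0.657). For Nr4a1 the ratio was 1.39 in WT (1.30 to 1.49), 1.07 in KO (1.01 to 1.14), 1.11 in Young (1.05 to 1.18) and 1.43 in Aged (1.32 to 1.54). For Nr4a3 it was 1.06 to 1.23, every interval above 1, and for Nr4a2 0.786 to 1.04. Tox was thus lower and Nr4a1 and Nr4a3 higher in Tcf7+ barcodes of all 4 libraries, also with gates from thinned barcodes.

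The order by Havcr2 depended on how the gates were called. Havcr2+ barcodes were deeper than Havcr2- ones (median 8010 against 5828.5 UMIs in WT and 9275 against 5014.5 in Aged, among Tcf7- Pdcd1+ barcodes). The Havcr2+ to Havcr2- ratio of Nr4a1 was 0.785 to 0.859 over the 4 libraries with gates from all UMIs. A gate minimum of 2 UMIs, with barcodes of 1 UMI left out, gave 0.678 to 0.847. Gates from thinned barcodes gave 0.916 to 1.13, above 1 in Aged only. Between gates from all UMIs and from thinned barcodes, the direction for Tox turned in Young (1.21 and 0.839) and in Aged (0.932 and 1.04). It was above 1 by both in WT (1.23 and 1.26) and KO (1.19 and 1.25). The 2 UMI minimum kept the directions from all UMIs for Tox, at 1.22 in WT, 1.21 in KO, 1.18 in Young and 0.904 in Aged.

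**Figure D2:**
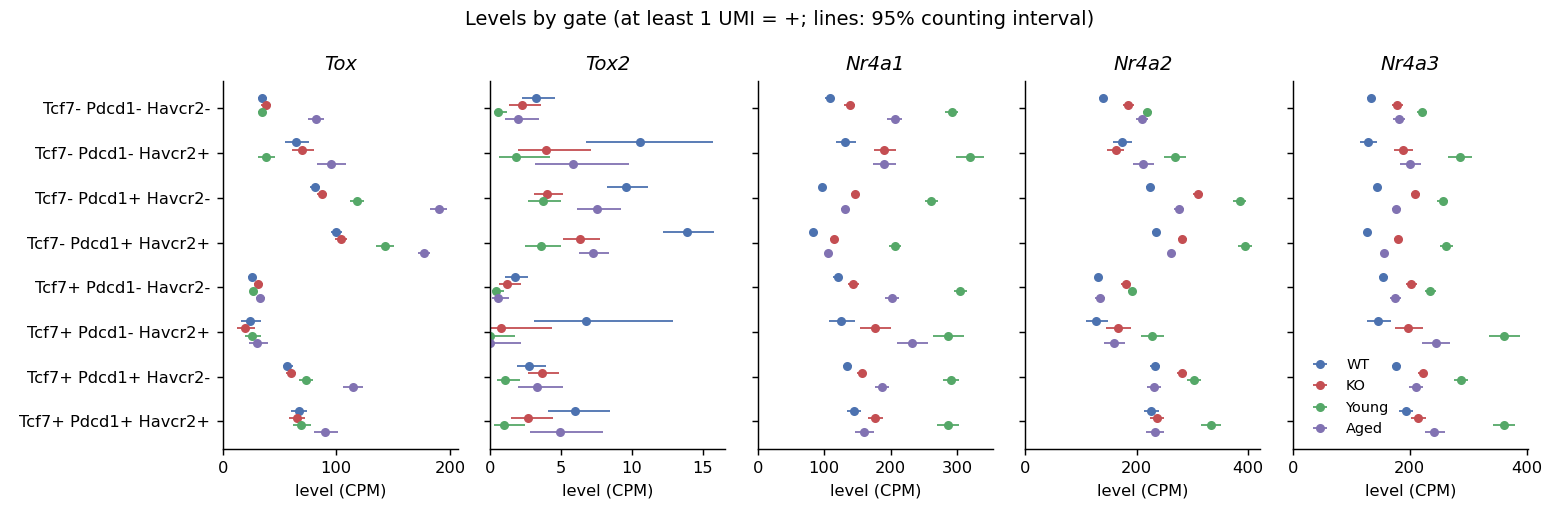
Levels in CPM (horizontal axes, from 0) of each gene in the 8 gates of Tcf7, Pdcd1 and Havcr2 (rows), with points coloured by library and lines for 95% counting intervals. Tox and Nr4a2 are higher in Pdcd1+ rows, Tox is at most 33.0 CPM in every Tcf7+ Pdcd1- row, and Nr4a1 of Young lies above that of Aged in all 8 gates.

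Within gates the pair differences had the same directions as in the whole class for most genes. In KO over WT, Nr4a1 and Nr4a3 were higher in 8 of 8 gates with every interval above 1, at ratios of 1.17 to 1.52 and 1.11 to 1.47. Nr4a2 was higher in 7 of 8, with 6 intervals above 1, and Tox in 6 of 8, with 1 interval above 1. Tox2 was lower in 7 of 8, with 5 intervals below 1. In Aged over Young, Tox was higher in 8 of 8 gates at 1.17 to 2.50, with 7 intervals above 1. Nr4a1 was lower in 8 of 8 at 0.502 to 0.810, Nr4a3 in 8 of 8 at 0.592 to 0.824 and Nr4a2 in 8 of 8 at 0.664 to 0.953. With both libraries weighted to the pooled mix of gates, the Aged to Young log2 ratio of Tox was 0.63 in place of 0.93, that of Nr4a1 -0.69 in place of -0.89 and that of Nr4a2 -0.41 in place of -0.30. The greatest Tox ratios were in Tcf7- Pdcd1- barcodes, where Young stood at 34.4 CPM and Aged at 82.2 CPM without Havcr2.

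**Figure D3:**
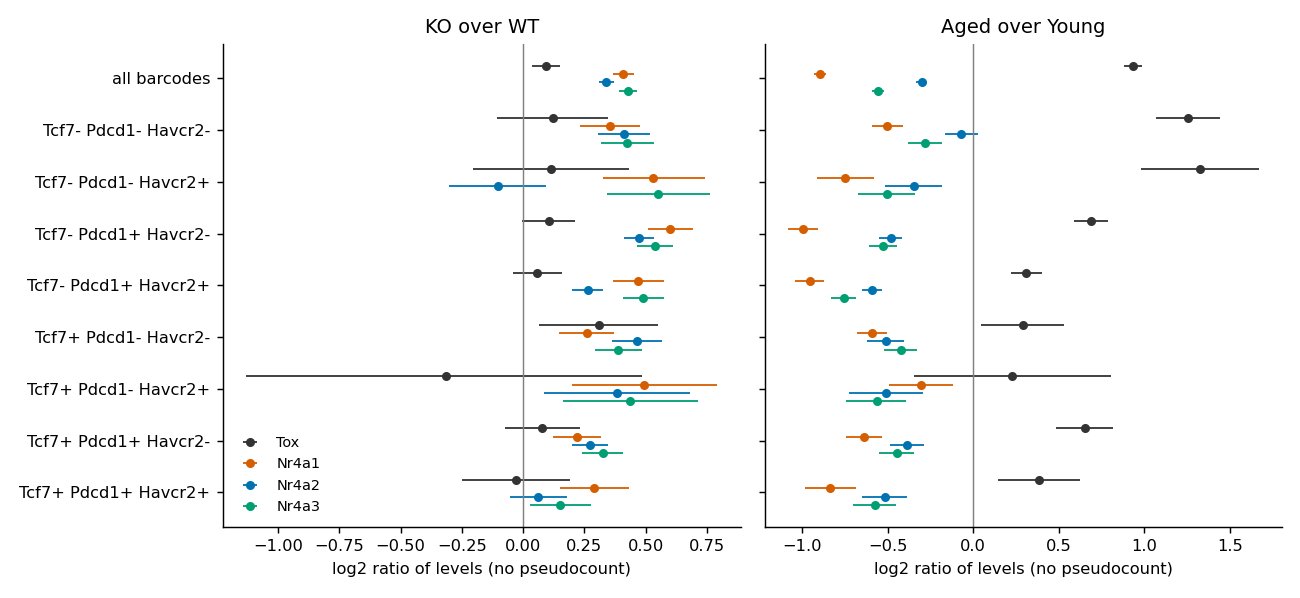
log2 ratios of levels without a pseudocount (horizontal axes) for KO over WT and Aged over Young, in all barcodes and in each of the 8 gates (rows), with 95% counting intervals. Nr4a1 and Nr4a3 lie right of 0 in all 8 gates in KO over WT and left of 0 in all 8 in Aged over Young, where Tox lies right of 0 in all 8.

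The UMIs of 15 other immediate early genes, among them Fos, Jun, Egr1 and Dusp1, were summed per barcode at 2000 UMIs. Of the 15, Junb (1036 CPM) and Dusp2 (713 CPM) stood highest in WT. What induced these genes was not measured, so the sum is not a measure of T cell receptor signalling alone. Barcodes were put into tertiles by cuts common to a pair (up to 6, 7 to 10 and above 10 UMIs in WT and KO, and up to 7, 8 to 13 and above 13 in Young and Aged). Nr4a1 followed this sum most and Tox ran against it. From the lowest to the highest tertile Nr4a1 went from 57.5 to 179.6 CPM in WT, 77.5 to 253 in KO, 129 to 444 in Young and 71.3 to 361 in Aged. The ratios of highest to lowest were 3.12 (2.96 to 3.30), 3.27 (3.11 to 3.44), 3.43 (3.28 to 3.59) and 5.07 (4.82 to 5.33). Nr4a3 ratios were 1.75 to 2.24 and Nr4a2 ratios 1.42 to 2.05. Tox went from 76.1 to 50.4 CPM in WT, 79.0 to 61.4 in KO, 90.6 to 59.6 in Young and 148 to 123 in Aged, at ratios of 0.662 (0.617 to 0.710), 0.778 (0.725 to 0.833), 0.658 (0.610 to 0.709) and 0.831 (0.783 to 0.882). Tox2 went with Tox in WT, at 0.404 (0.318 to 0.510), and in KO, at 0.506 (0.352 to 0.716), but not in Aged, at 1.36 (1.02 to 1.79). In Young its ratio was 1.13 (0.686 to 1.88), with 37 UMIs in the highest tertile. Barcodes of the highest tertile were shallower, with a median of 5429.5 UMIs against 7249 in WT and 4778.5 against 7212 in Aged, and the part of depth in these ratios was not tested.

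The opposite order was found along 10 inhibitory receptor genes (Lag3, Tigit, Ctla4, Entpd1, Cd38, Cd101, Cd160, Cd244a, Btla and Cd200r1), with tertiles of 0, 1 to 2 and above 2 UMIs. Tox went from 36.2 to 118 CPM in WT, 44.8 to 123 in KO, 41.0 to 159 in Young and 73.6 to 208 in Aged, at ratios of 3.27 (3.03 to 3.53), 2.75 (2.54 to 2.97), 3.88 (3.57 to 4.23) and 2.83 (2.66 to 3.02). Tox2 ratios were 3.65 to 4.90. Nr4a1 went the other way, from 119 to 85.7 CPM in WT, 147 to 128 in KO, 299 to 213 in Young and 186 to 111 in Aged. Nr4a3 differed little, with ratios of 0.897 to 1.04. Nr4a2 was higher in the highest tertile of both lists, here at 1.56 to 1.85, so it went with Tox on this axis and with Nr4a1 on the other. Depths of these tertiles were closer, with a median of 6228 UMIs in the highest and 6575 in the lowest tertile of WT.

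**Figure D4:**
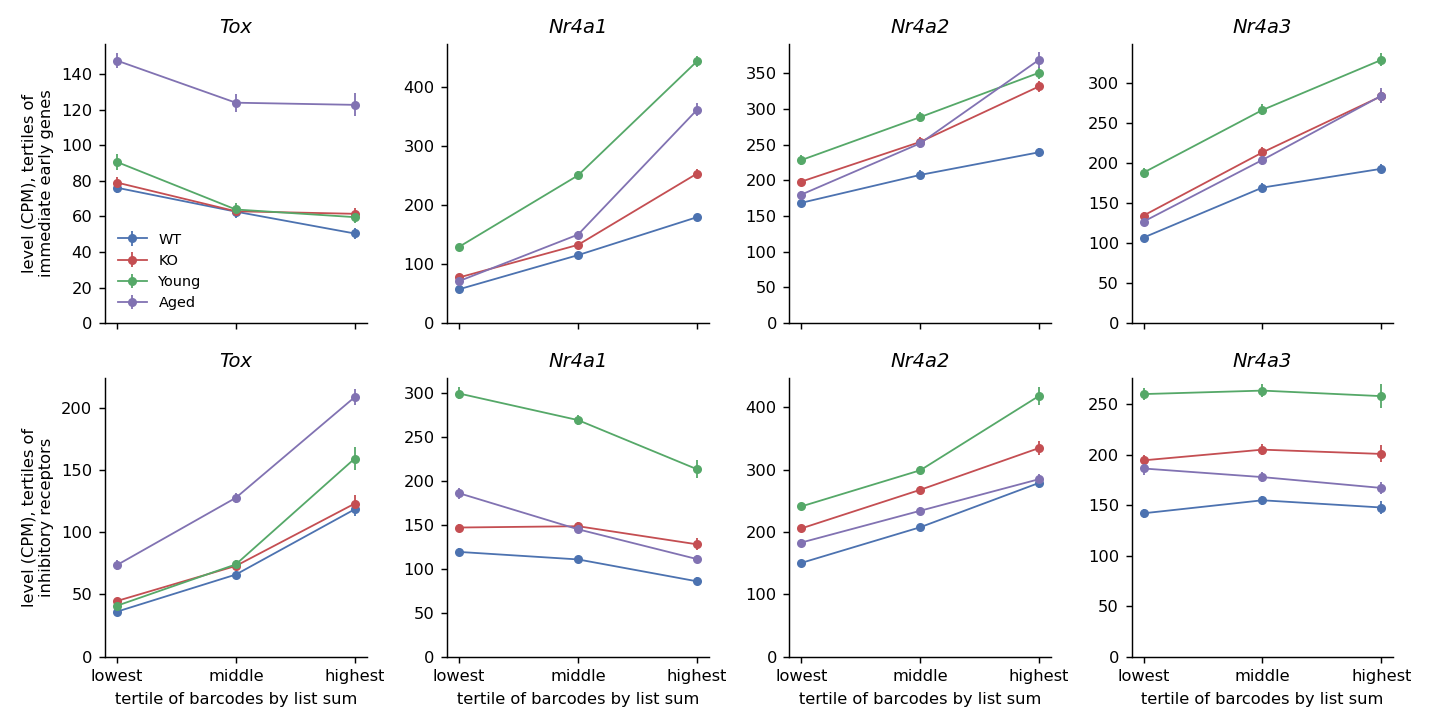
Levels in CPM (vertical axes, from 0) of Tox and the Nr4a genes in tertiles of barcodes (horizontal axes) by the summed UMIs of immediate early genes (top) and of inhibitory receptors (bottom), by library, with 95% counting intervals. The tertiles follow cuts common to a pair and are unequal in size. From the lowest to the highest tertile Nr4a1 is higher on the first list and lower on the second, Tox does the reverse, and Nr4a2 is higher on both; Nr4a1 of KO is level between the lowest and middle tertiles of the second list (147 and 148 CPM).

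Pair differences were read within these tertiles. In KO over WT, Nr4a1 was higher in all 3 tertiles of immediate early genes, at 1.35 (1.27 to 1.43), 1.15 (1.09 to 1.22) and 1.41 (1.35 to 1.47), and Nr4a3 at 1.26, 1.26 and 1.47. In Aged over Young, Nr4a1 stood at 0.551 (0.521 to 0.583), 0.599 (0.573 to 0.627) and 0.815 (0.785 to 0.845), so the gap was smallest in the highest tertile. Nr4a2 stood at 0.788, 0.873 and 1.05 (1.01 to 1.09), above 1 in the highest tertile only. Tox was higher in Aged in all 3, at 1.63 (1.54 to 1.72), 1.94 (1.81 to 2.07) and 2.06 (1.90 to 2.23). Along inhibitory receptors the Aged to Young ratio of Tox was 1.80, 1.72 and 1.31 (1.23 to 1.40). The summed level of the 15 immediate early genes was 5856 CPM in Young and 4403 in Aged, and 4372 in WT and 4365 in KO. It moved with the Nr4a genes in the transfer pair and was level in the other, and its part in the Nr4a difference of the transfer pair was not tested beyond the tertiles.

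At 2000 UMIs each barcode was also put in 1 of 4 kinds by detection of Tox and of any Nr4a gene. Tox without Nr4a was found in 5.14% of WT (Clopper-Pearson interval 4.69 to 5.62), 4.76% of KO (4.31 to 5.25), 2.35% of Young (2.05 to 2.68) and 8.01% of Aged barcodes (7.43 to 8.63). Nr4a without Tox was found in 43.6%, 50.5%, 61.5% and 46.8%, both in 6.07%, 6.81%, 7.79% and 11.9%, and neither in 45.2%, 37.9%, 28.4% and 33.3%. A kind with neither can hold cells whose transcripts were missed at this depth. Tox and any Nr4a met 1.02 to 1.11 times as often as the product of their shares. The pairs of genes differed, with 2.23 to 3.08 for Tox with Tox2, 1.14 to 1.45 for Tox with Nr4a2 and 0.852 to 0.991 for Tox with Nr4a1. The values of Tox with Tox2 rest on 10 to 36 barcodes. At 4000 UMIs they were 2.40 in WT, 1.78 in KO (2.99 at 2000), 2.17 in Young (3.08 at 2000) and 1.95 in Aged. For Tox with Nr4a1 the values were 0.835 to 0.933 at 4000 UMIs and 0.963 to 1.06 unthinned, where depth differs between barcodes. Nr4a1 with Nr4a3 met at 1.22 to 1.55, and Nr4a2 with Nr4a3 at 1.22 to 1.34.

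Other transcripts were compared between barcodes with Tox only and those with Nr4a only, each library on its own. Tox only held 457 WT, 386 KO, 216 Young and 645 Aged barcodes, against 3875, 4096, 5654 and 3768 with Nr4a only. Their median depths were 6189 against 6295 UMIs in WT, 6822.5 against 6766 in KO, 5049.5 against 4581 in Young and 6880 against 5609.5 in Aged. The part of depth in this comparison was not tested. Of immediate early genes, 6 of 15 measured in WT, 5 of 14 in KO, 9 of 14 in Young and 10 of 13 in Aged were at least 1.5 times lower with Tox only. The shares of all measured genes lower were 3.57%, 2.76%, 5.41% and 3.44%. No immediate early gene was 1.5 times higher in any of the 4. Atf3, an immediate early stress factor, stood at 15.3 CPM with Tox only and 43.6 with Nr4a only in WT, 29.9 and 57.3 in KO, 46.7 and 110 in Young, and 10.7 and 48.6 in Aged. Fos, a part of AP-1, was 0.709, 0.870, 0.468 and 0.597 times as high with Tox only. Progenitor and memory genes were also on the Nr4a side, with 6, 3, 4 and 9 of 14 lower with Tox only and 0 higher. Tcf7 was 0.569, 0.535, 0.608 and 0.325 times as high. Id3, another progenitor factor, was 0.619, 0.848, 0.417 and 0.370 times as high.

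Inhibitory receptors were on the Tox side in WT, KO and Young, and less clearly in Aged. Of these, 6 of 11 in WT, 6 of 11 in KO, 7 of 12 in Young and 1 of 10 in Aged were at least 1.5 times higher with Tox only, beside 2.40%, 3.46%, 5.52% and 2.77% of all measured genes. Lag3, a receptor for MHC class II, stood at 265 CPM with Tox only and 139 with Nr4a only in WT, 276 and 114 in KO, 158 and 42.6 in Young, and 249 and 157 in Aged. In Aged 1 of the 10, Btla, was past 1.5-fold lower. The median log2 ratio of the list in Aged was 0.35, beside 0.04 for all measured genes. Of other factors tied to exhaustion, 3 of 12 in WT, 3 of 12 in KO, 4 of 11 in Young and 3 of 12 in Aged were higher, and 1 of 12 in WT was lower (Tbx21, T-bet, 0.656 times) and 0 in the others. Maf, which drives inhibitory receptors, was 1.98 times as high in WT, 1.96 in KO and 1.94 in Aged, and was not among the 11 measured in Young. Cytotoxic genes were mixed, with 2, 3, 1 and 1 higher and 2, 1, 2 and 3 lower. Activation factors had 1, 2, 2 and 0 of 14 higher and 2, 6, 6 and 9 lower. Calcineurin and NFAT genes, which signal to both Tox and Nr4a, had 0 higher in any library, and 1 of 10 lower in KO and in Aged.

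The lists around these genes also differed between the pairs. Counts in KO stand beside 0.499% of all measured genes past 1.5-fold higher and 2.87% lower, and nothing is read from a count of 1 in so short a list. In KO, 0 of 15 immediate early genes were past 1.5-fold higher and 3 of 15 were lower, with a median log2 ratio of -0.19, while the Nr4a genes were higher. Fos stood at 168 CPM in KO and 329 in WT (0.510 times), and Btg2, an antiproliferative immediate early gene, at 537 and 403 (1.33 times). Of activation factors, 0 of 14 were past 1.5-fold higher and 1 lower, with a median of 0.21. Cd83 was highest at 1.43 times and Myc lowest at 0.549 times. Inhibitory receptors had 0 of 10 higher and 1 lower (Cd38, 0.604 times), with a median of -0.04. Calcineurin and NFAT genes had 0 of 10 past 1.5-fold, from Rcan3 at 0.890 to Nfatc2 at 1.21 times. Other exhaustion factors had 0 of 12 higher and 1 lower (Maf, 0.643 times), progenitor and memory genes 0 of 14 higher and 1 lower (Klf2, 0.617 times), and cytotoxic genes 0 of 11 higher and 1 lower (Gzmb, granzyme B, 0.626 times).

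Counts in Aged over Young stand beside 2.29% of all measured genes higher and 3.57% lower. In Aged over Young, 0 of 13 immediate early genes were past 1.5-fold higher and 2 lower, with a median log2 ratio of -0.42, from Atf3 at 0.388 to Jun at 0.923 times. Every measured gene of that list was lower in Aged, as the Nr4a genes were. Inhibitory receptors had 5 of 10 higher and 0 lower, with a median of 0.55. Lag3 led with 186 CPM in Aged and 52.4 in Young (3.55 times) and Btla was lowest at 0.655 times. Other exhaustion factors had 4 of 12 higher and 0 lower, led by Zbtb32, a repressor induced on activation, at 5.27 times. Cytotoxic genes had 5 of 12 higher and 2 lower, from the chemokine gene Ccl3 at 2.94 times to Gzma at 0.530 times. Progenitor and memory genes had 1 of 14 higher (Myb, 1.54 times) and 4 lower (Id3 lowest at 0.467 times). Activation factors had 2 of 14 higher and 1 lower, from Tnfrsf4 (OX40) at 2.92 to Cd83 at 0.238 times. Calcineurin and NFAT genes had 0 of 10 past 1.5-fold, from Nfatc2 at 0.735 to Rcan3 at 1.44 times. Tox4, a relative of Tox, was 0.993 times as high in Aged as in Young and 1.06 times as high in KO as in WT, and Tox3 was at 0 CPM in WT and KO.

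Likeness of pattern was measured as the Pearson correlation of log2(CPM + 1) over the 8 gates of the 4 libraries, 32 points, centred within each library. Gates share their library, and gate depth differs, so the values are descriptions. Tox ran with Nr4a2 (0.89) and Tox2 (0.86), and against Nr4a1 (-0.59), and its correlation with Nr4a3 was -0.15. Among 4778 genes, those most like Tox were Chst12 (0.96), Ier5l (0.94) and Lag3 (0.93). Nr4a2 was most like Nrgn (0.92), Il21r (0.91) and Ier5l (0.90), so Ier5l was near both. Nr4a1 was most like Rara (0.91), Cish (0.87) and Csrnp1 (0.86), and Nr4a3 most like Rel (0.86), Traf1 (0.85) and Ddx3x (0.84). Tox2, at its low counts, was most like Atp5j2 (0.92), Ostc (0.88) and Samsn1 (0.88).

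T cell receptor V beta segments divide the class by clonal make-up, and their transcripts were read in Young and Aged for the 12 segments with at least 100 barcodes in both. Tox was higher in Aged in 12 of 12 segments, at ratios of 1.23 to 5.11 with a median of 2.52. Nr4a1 was lower in Aged in 12 of 12, at 0.373 to 0.853 with a median of 0.623. Nr4a3 was lower in 10 of 12, and Nr4a2 was higher in 6 and lower in 6. Among segments with at least 100 barcodes, Trbv19 went with the highest Tox in each library, 205 CPM in Young and 252 in Aged. Barcodes with Trbv12-1, 24.5% of Aged and 12.6% of Young, stood at 34.4 and 125 CPM for Tox and 319 and 119 CPM for Nr4a1. Those with Trbv26 in Young, 1619 barcodes, stood at 77.9 CPM for Tox and 363 CPM for Nr4a1. Without Trbv12-1 barcodes the Aged to Young log2 ratio was 0.92 for Tox and -0.76 for Nr4a1. That removal took 2301 Aged and 1630 Young barcodes, a wider set than the 2021 and 1232 counted under this segment above. Segments of 1 library share their mice and preparation and are not replicates.

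**Figure D5:**
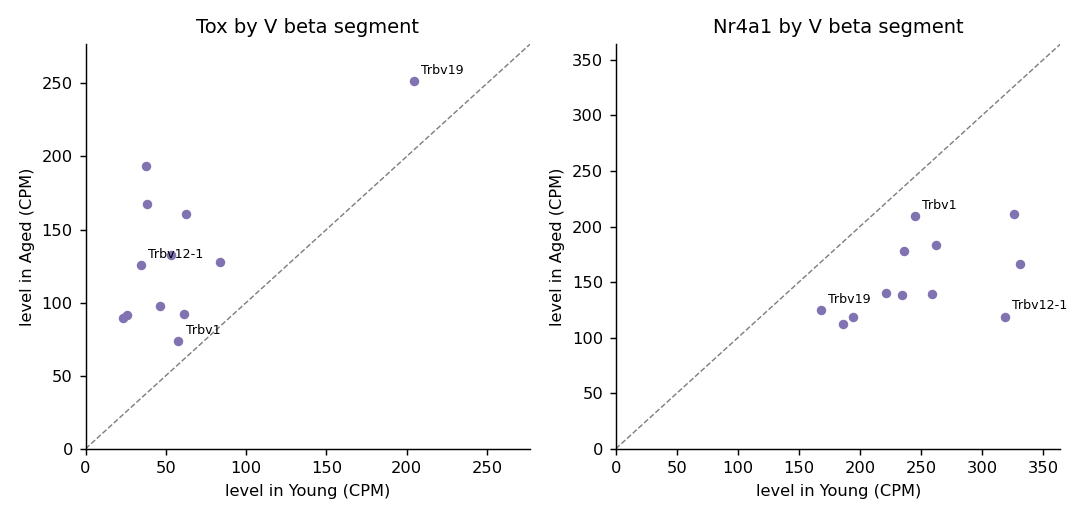
Level in Young (horizontal axes, CPM) against level in Aged (vertical axes, CPM) of Tox and Nr4a1 for each of 12 V beta segments, with the line of equal levels dashed and no error drawn. For Tox all 12 points lie above the line and for Nr4a1 all 12 lie below it.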

How the data were processed

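Groups were taken from the labels. The deposited values are counts of UMIs per gene and barcode, written by Cell Ranger 6.1.1 (WT, KO) or 7.1.0 (Young, Aged), per the file headers. Cell Ranger 6.0.0, Seurat 3.2.3 and the mm10 build are named in the submitters' processing notes. No source used here gives the setting for intronic reads or the barcode calling, and both can move a level. Per the labels, a 3' kit was used for WT and KO and an immune profiling kit for Young and Aged. Doublets were not called, and removal of the 8% deepest barcodes was an alternative.

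From the counts, UMIs were summed over the class and divided by its total (CPM). Levels carry exact Poisson, ratios exact conditional binomial and shares Clopper-Pearson intervals, all 95%. The floor is 3 counts. Log2 ratios used a pseudocount of 1 CPM. Thinning to 2000 UMIs drew without replacement with a fixed seed. Scripts used Python 3.11.15, numpy 2.4.6, scipy 1.17.1 and pandas 2.3.3, and were tested on simulated data. There were 11 planned and 4 added alternatives of each gene's ratio; the 4 were chosen after the data were seen. Genes named are the 5 genes, the gate genes, the highest and lowest measured gene of each list in each pair, and the 3 genes most like each of the 5. Segments, and some genes of lists such as Egr1 or Tcf7 in the Tox only comparison, were named outside this rule. The genes and lists were chosen with earlier results of these data known.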

Additional observations from a re-analysis of the deposited data

Results flagged for a closer look

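Within pairs, the contrast of Havcr2+ with Havcr2- barcodes among Tcf7- Pdcd1+ barcodes went opposite ways for Nr4a2 and Tox, and the differences between libraries were not tested. The ratio of Nr4a2 was 0.909 in KO and 1.05 in WT. That of Tox was 0.932 in Aged and 1.21 in Young. With gates called from thinned barcodes the values were 1.098 in KO and 1.06 in WT for Nr4a2, and 1.04 in Aged and 0.839 in Young for Tox. A gate minimum of 2 UMIs gave 0.842 in KO and 0.955 in WT for Nr4a2, both below 1. For Tox it gave 0.904 in Aged and 1.18 in Young, again in opposite directions.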

How the results depend on the processing

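With 1 library per group, intervals cover counting error only, and depth limits Tox2 most. No paired analysis was possible because each group had 1 library. Over the 15 alternatives of each ratio, all but Tox in KO over WT kept their direction. In KO over WT the log2 ratios ranged from 0.37 to 0.47 for Nr4a1, 0.24 to 0.43 for Nr4a2, 0.37 to 0.52 for Nr4a3 and -1.29 to -0.68 for Tox2. In Aged over Young they ranged from 0.61 to 1.23 for Tox, 0.86 to 1.60 for Tox2, -0.98 to -0.66 for Nr4a1, -0.43 to -0.070 for Nr4a2 and -0.64 to -0.31 for Nr4a3. The log2 ratio of Tox in KO over WT reversed to -0.015 without the 8% deepest barcodes, to -0.021 without markers of other cell types and to -0.069 at 4000 to 8000 UMIs. Scaling by the median gene ratio shifted all log2 ratios by 0.06 in KO over WT and -0.09 in Aged over Young.

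The median log2 ratio of the 5 genes moved, in KO over WT, to 0.40 by median gene ratio scaling, 0.28 by equal weight of barcodes, 0.43 with no CD3 and CD8 gate, 0.28 without the deepest barcodes, 0.24 without other markers, 0.30 without cycling barcodes, 0.28 by equal gate weights and 0.25 at 4000 to 8000 UMIs. In Aged over Young it moved to -0.39 by scaling, -0.19 by equal weight of barcodes, -0.20 without the deepest, -0.26 without cycling barcodes, -0.34 without Trbv12-1, -0.43 by equal and -0.41 by pooled gate weights and -0.070 at 4000 to 8000 UMIs. Genes past 1.5-fold without a filter on low counts numbered 95 higher and 1059 lower in KO over WT, and 393 and 1057 in Aged over Young. Scaling by the median gene ratio gave 60 higher in KO over WT, beside 37.

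Gates from thinned barcodes reversed log2 gate ratios. For Tcf7- Pdcd1+ barcodes, Havcr2+ over Havcr2- became 0.00044 for Nr4a3 in WT, 0.13 for Nr4a2 and 0.096 for Nr4a3 in KO, -0.25 for Tox in Young, and 0.057 for Tox, 0.18 for Nr4a1, 0.45 for Nr4a2 and 0.30 for Nr4a3 in Aged. Pdcd1+ over Pdcd1- in Tcf7+ barcodes became -0.42 for Tox2 in KO and 0.13 for Nr4a1 in Aged, and Tcf7+ over Tcf7- became 0.11 for Nr4a2 in Aged. A gate minimum of 2 UMIs gave -0.066 for Nr4a2 in WT (Havcr2). The cause was not tested. Of 158 gate ratios recomputed, 17 changed sign. In these 12 the counting interval with gates from all UMIs excluded a ratio of 1, and in the other 5 it did not. Of those 5, thinned gates gave -0.13 for Nr4a1 in KO (Pdcd1, Tcf7-), 0.15 for Nr4a1 in Young (Pdcd1, Tcf7+) and 0.38 for Tox2 in Aged (Havcr2), and the 2 UMI minimum gave 0.080 for that Young ratio of Nr4a1 and -0.036 for Nr4a2 in Young (Havcr2).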
